A study of Mus musculus with 8 samples.

Results

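Branched-chain amino acid (BCAA) catabolism was followed through 10 genes, Bcat2, Bckdha, Bckdhb, Dbt, Ppm1k, Ivd, Mccc1, Mccc2, Hibch and Hibadh, taken by their symbols from the 19348 genes of the count table. All 10 were detected in every library and all 10 passed the filter on low counts in each comparison. RNA-seq covered liver and epididymal white adipose tissue (eWAT) of C57BL/6 mice aged 12 weeks and fasted for 16 h, with 2 Crtc1+/+ and 2 labelled Crtc1-/- libraries of each tissue, 8 in all. The Crtc1-/- mice carried a whole-body disruption made with CRISPR/Cas9 guides against exons 2 and 4 of Crtc1, which encodes a coactivator of the cAMP-responsive factor CREB, and all mice were males on a normal diet. A group came from 2 mice, and a piece of liver and of eWAT was taken, so that the tissues share animals, but the labels do not tie a liver library to an eWAT library.

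Leucine, isoleucine and valine are broken down in mitochondria. A transaminase, Bcat2 in most tissues, first removes the amino group, and the branched-chain ketoacid dehydrogenase (BCKDH) complex then commits the carbon skeleton to oxidation. BCKDH is built from the E1 subunits Bckdha and Bckdhb, the E2 core Dbt and the E3 subunit Dld. It is switched off by the kinase Bckdk and on by the phosphatase Ppm1k. Below BCKDH the paths part, with Ivd and the carboxylase subunits Mccc1 and Mccc2 on the leucine side and Hibch and Hibadh on the valine side. Liver is known for low transaminase and high BCKDH activity, and adipocytes for having both.

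Total counts lay between 16560085 and 19721481 per library. Crtc1 itself was not lower in the labelled Crtc1-/- libraries. In liver its level was 11.7 and 9.86 CPM (counts scaled to a common library total, by TMM within a tissue) in Crtc1+/+ and 22.1 and 17.98 CPM in labelled Crtc1-/- libraries, with a log2 fold change of 0.89 ± 0.27 (SE, n = 2 against 2, edgeR adjusted p = 0.184). In eWAT it was 32.6 and 33.7 CPM against 58.5 and 33.6 CPM (0.48 ± 0.37, edgeR adjusted p = 0.396). The paper reports loss of Crtc1 in the Crtc1-/- mice by genotyping and by Western blot. Counts were summed over the whole gene, the targeted exons were not analysed separately here, and "labelled" is kept throughout.

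The eWAT libraries also differed in the cell types they held. Adipocyte markers (15 genes) made up 0.287% and 0.454% of counts in Crtc1+/+ eWAT and 4.89% and 2.39% in labelled Crtc1-/- eWAT. Epididymis markers (14 genes, led by Gpx5) made up 7.32% and 8.64% in Crtc1+/+ eWAT and 0.00232% and 0.00114% in labelled Crtc1-/- eWAT. Hepatocyte markers (14 genes, led by Alb) made up 0.563% and 0.0704% in Crtc1+/+ eWAT, 0.0998% in labelled Crtc1-/- replicate 1 and 9.12% in replicate 2, against 17.2% to 21.0% in liver. In liver the epididymis markers stood at 0.000203% and 0.000169% in Crtc1+/+ and at 0.00774% and 0.00109% in labelled Crtc1-/- libraries. None of the adipocyte markers was at 0 in any eWAT library. In bulk tissue, fewer cells of a type and less RNA per cell cannot be told apart.

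**Figure D1:**
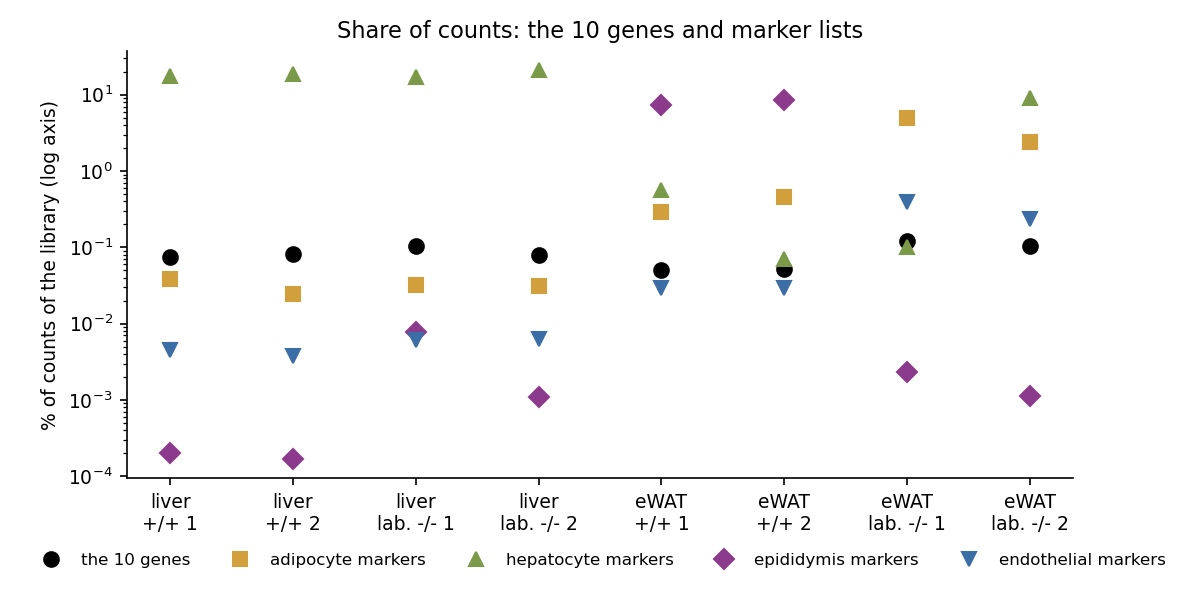
Share of each library's counts (percent, log axis) taken by the 10 genes together and by 4 marker lists, with 1 point per list and library (lab. -/-, labelled Crtc1-/-). In eWAT the 10 genes stand at 0.0510% and 0.0515% in Crtc1+/+ and at 0.120% and 0.104% in labelled Crtc1-/- libraries, adipocyte and endothelial markers are higher in the latter, epididymis markers lower, and 1 labelled Crtc1-/- library holds hepatocyte markers at 9.12%.

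Stretches of DNA upstream of 4 of the genes are shown because 3 of them (Ivd, Bckdha and Bckdhb) rose together in eWAT. Ppm1k was added as the single gene with a cAMP response element half-site, the kind of site CREB binds. It also had the largest fold change in liver, which did not pass (edgeR adjusted p = 0.181). The part of any such site in the levels was not tested. The whole genes lie, on GRCm38, at chr7:45568967-45589710 (Bcat2), chr7:25629852-25658782 (Bckdha), chr9:83925111-84124240 (Bckdhb), chr3:116513070-116549981 (Dbt), chr6:57506502-57535552 (Ppm1k), chr2:118861959-118882909 (Ivd), chr3:35956292-36000694 (Mccc1), chr13:99948532-100015639 (Mccc2), chr1:52845038-52920986 (Hibch) and chr6:52546230-52640300 (Hibadh). Each stretch is RefSeq sequence of GRCm38.p6, written 5′ to 3′, and stops where the annotated gene begins. Capitals mark the half-site (TGACG), the nuclear receptor half-site (AGGTCA) and the CCAAT box (CCAAT), each searched on both strands.
Ivd, chr2:118861744-118861958, plus strand: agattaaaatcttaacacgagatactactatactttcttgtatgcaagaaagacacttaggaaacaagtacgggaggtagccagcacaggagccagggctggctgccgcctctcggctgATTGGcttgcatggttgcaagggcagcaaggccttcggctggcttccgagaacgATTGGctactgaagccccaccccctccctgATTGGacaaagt
Bckdha, chr7:25658783-25659011, minus strand: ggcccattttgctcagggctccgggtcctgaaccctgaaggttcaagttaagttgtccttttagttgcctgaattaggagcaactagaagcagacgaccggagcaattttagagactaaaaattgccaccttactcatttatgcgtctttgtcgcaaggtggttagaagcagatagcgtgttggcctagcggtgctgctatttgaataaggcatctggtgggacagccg
Bckdhb, chr9:83924887-83925110, plus strand: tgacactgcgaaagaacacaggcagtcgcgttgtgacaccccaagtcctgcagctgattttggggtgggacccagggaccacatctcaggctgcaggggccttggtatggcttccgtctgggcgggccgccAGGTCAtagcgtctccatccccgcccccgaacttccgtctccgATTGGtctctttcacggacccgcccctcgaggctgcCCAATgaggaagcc
Ppm1k, chr6:57535553-57535737, minus strand: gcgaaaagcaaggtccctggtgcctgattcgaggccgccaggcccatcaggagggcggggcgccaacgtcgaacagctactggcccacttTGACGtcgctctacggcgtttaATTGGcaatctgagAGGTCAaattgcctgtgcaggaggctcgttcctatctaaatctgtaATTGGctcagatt

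RefSeq windows were at hand for 9 of the 10 genes, 11 windows in all, and for Dbt there was no entry. In the 250 bases before the start, 1 of the 9 genes held TGACG or its complement CGTCA, against 17.8% of the 32851 windows of all genes in the RefSeq table. AGGTCA or TGACCT, the half-site of nuclear receptors such as the PPAR family, was held by 2 of the 9 (Ppm1k and Bckdhb) against 4607 of the 32851 windows. CCAAT or ATTGG was held by 6 of the 9 against 33.8% of all windows, with 4 matches before Ivd, of which 3 lie in the stretch shown, and GGGCGG or CCGCCC, the GC box, by 5 of the 9 against 32.7%. The 2 windows of Bcat2 lay inside its annotated gene and held none of the 4 motifs, as did that of Bckdha.

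Levels were compared between genes per transcript length, in FPKM, a unit scaled to transcript length and library total. In Crtc1+/+ liver the order was Bckdha at 174 ± 12.9 FPKM (SD, n = 2), Hibadh at 102 ± 21.3, Ivd at 69.0 ± 8.49 and Bckdhb at 44.9 ± 1.98, with Bcat2 in the seventh place at 9.82 ± 0.495 FPKM. Dbt at 3.45 ± 1.39 and Ppm1k at 1.33 ± 0.0283 FPKM were the lowest. The ranges of Mccc1, Bcat2 and Hibch overlapped. In Crtc1+/+ eWAT, Hibadh came first at 94.2 ± 6.51 FPKM, Bckdha second at 55.0 ± 13.5 and Bcat2 in the third place at 38.6 ± 1.58 FPKM, followed by Ivd at 32.4 ± 2.92. Bckdhb at 22.0 ± 0.827 and Mccc2 at 20.5 ± 3.46 did not differ beyond their spread. Dbt and Ppm1k were again the lowest, at 4.03 ± 1.24 and 0.800 ± 0.141 FPKM. In labelled Crtc1-/- eWAT the order was Bckdha at 161 ± 2.07, Hibadh at 137 ± 4.86, Ivd at 99.9 ± 15.7, Bcat2 at 93.8 ± 35.8 and Bckdhb at 58.2 ± 0.771 FPKM. The levels of Ivd and Bcat2 there overlapped.

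**Figure D2:**
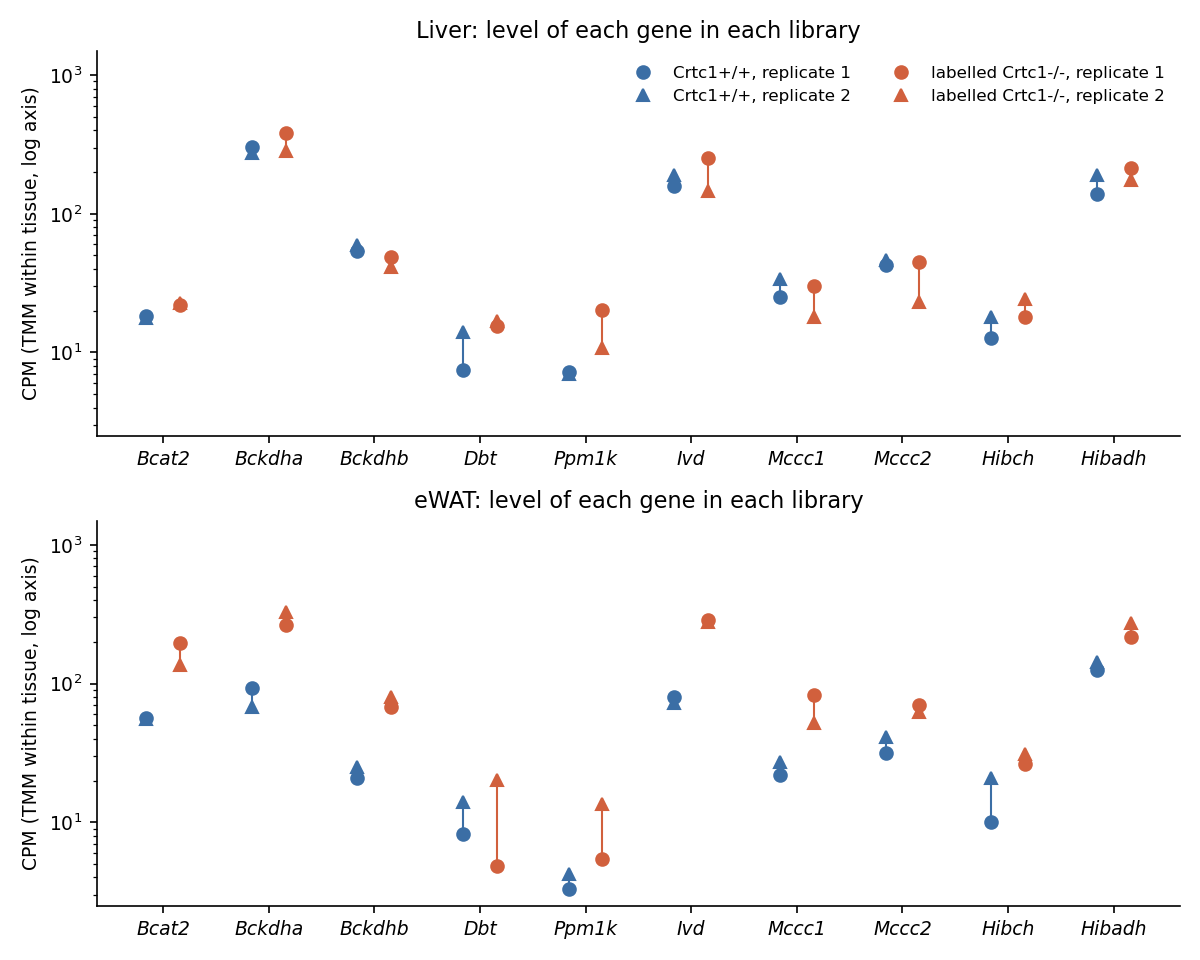
Level of each of the 10 genes in each of the 8 libraries (CPM, scaled by TMM within a tissue, log axis), with 1 symbol per library and a line joining the 2 libraries of a group. In liver the groups lie close together except for Ppm1k, and in eWAT both labelled Crtc1-/- libraries lie above both Crtc1+/+ libraries for 9 of the 10 genes, Dbt being the exception.

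The effect of genotype in eWAT was examined first. Bcat2, both E1 subunits of BCKDH and Ivd were higher in labelled Crtc1-/- than in Crtc1+/+ eWAT, by 1.58 to 1.89 on the log2 scale. The remaining 6 genes had positive fold changes that did not pass by edgeR. DESeq2 also called Mccc1, Hibadh and Mccc2 (DESeq2 adjusted p = 0.0020, 0.0379 and 0.0424), in a fit that called 15.3% of all genes higher. By edgeR, 4 of the 10 genes passed an adjusted p of 0.05 in the upward direction, against 6.65% of the 15391 genes tested. None passed downward, against 5.54% of all genes. At the study's own threshold (absolute log2 fold change over 1, unadjusted p under 0.01) 5 of the 10 were higher, against 8.37% of all genes. The median log2 fold change of the 10 was 1.39, beside -0.05 for all genes tested. Both labelled Crtc1-/- libraries lay above both Crtc1+/+ libraries for 9 of the 10, against 31.3% of all genes.

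Bcat2, the mitochondrial transaminase, stood at 56.4 and 55.3 CPM in Crtc1+/+ eWAT and at 198 and 137 CPM in labelled Crtc1-/- eWAT. The groups did not overlap, and the gap was wider than the spread within either group (log2 fold change 1.58 ± 0.31, edgeR adjusted p = 0.0401). Bckdha, the E1 alpha subunit that carries the regulatory phosphorylation sites, was at 92.5 and 67.3 CPM against 264 and 326 CPM (1.89 ± 0.33, edgeR adjusted p = 0.0335). Bckdhb, its E1 beta partner, was at 20.9 and 25.2 CPM against 67.7 and 80.6 CPM (1.68 ± 0.29, edgeR adjusted p = 0.0310). Both E1 subunits were higher in each labelled Crtc1-/- library than in any Crtc1+/+ library.

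Dbt, the E2 core, did not follow the E1 subunits in each library. It was at 8.19 and 14.1 CPM in Crtc1+/+ eWAT and at 4.84 and 20.2 CPM in labelled Crtc1-/- eWAT. The 2 labelled Crtc1-/- libraries enclosed the Crtc1+/+ range, and the log2 fold change was 0.17 ± 0.76 (edgeR adjusted p = 0.890). Without labelled Crtc1-/- replicate 2 it was -1.25 (edgeR adjusted p = 0.308). Ppm1k, the phosphatase that activates BCKDH, was at 3.32 and 4.20 CPM against 5.39 and 13.5 CPM, with a log2 fold change of 1.33 ± 0.63 (edgeR adjusted p = 0.207) that was 0.48 without the same library. The higher of its 2 labelled Crtc1-/- values was thus in the library with hepatocyte markers.

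Ivd, isovaleryl-CoA dehydrogenase, the first step of leucine oxidation below BCKDH, had the largest fold change of the 10 together with Bckdha. Its level was 80.2 and 72.2 CPM in Crtc1+/+ eWAT and 287 and 277 CPM in labelled Crtc1-/- eWAT (log2 fold change 1.89 ± 0.29, edgeR adjusted p = 0.0260). The next enzyme, methylcrotonyl-CoA carboxylase, is made of 2 subunits. Its biotin-carrying subunit Mccc1 was at 21.9 and 27.1 CPM against 82.7 and 51.9 CPM (1.46 ± 0.36, edgeR adjusted p = 0.0613), and Mccc2 at 31.5 and 41.3 CPM against 69.7 and 62.5 CPM (0.86 ± 0.29, edgeR adjusted p = 0.116). Neither passed the adjusted threshold by edgeR, although the groups did not overlap for either subunit.

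On the valine side, Hibch, which removes coenzyme A from the valine intermediate, was at 9.97 and 20.8 CPM in Crtc1+/+ eWAT and at 26.4 and 31.2 CPM in labelled Crtc1-/- eWAT. Its log2 fold change was 0.90 ± 0.46 (edgeR adjusted p = 0.234). Hibadh, the dehydrogenase that follows, was at 125 and 143 CPM against 215 and 275 CPM (0.87 ± 0.30, edgeR adjusted p = 0.124). The 2 valine enzymes and Mccc2 had fold changes close to each other and smaller than those of Bcat2, E1 and Ivd, but whether these changes differ between genes was not tested.

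**Figure D3:**
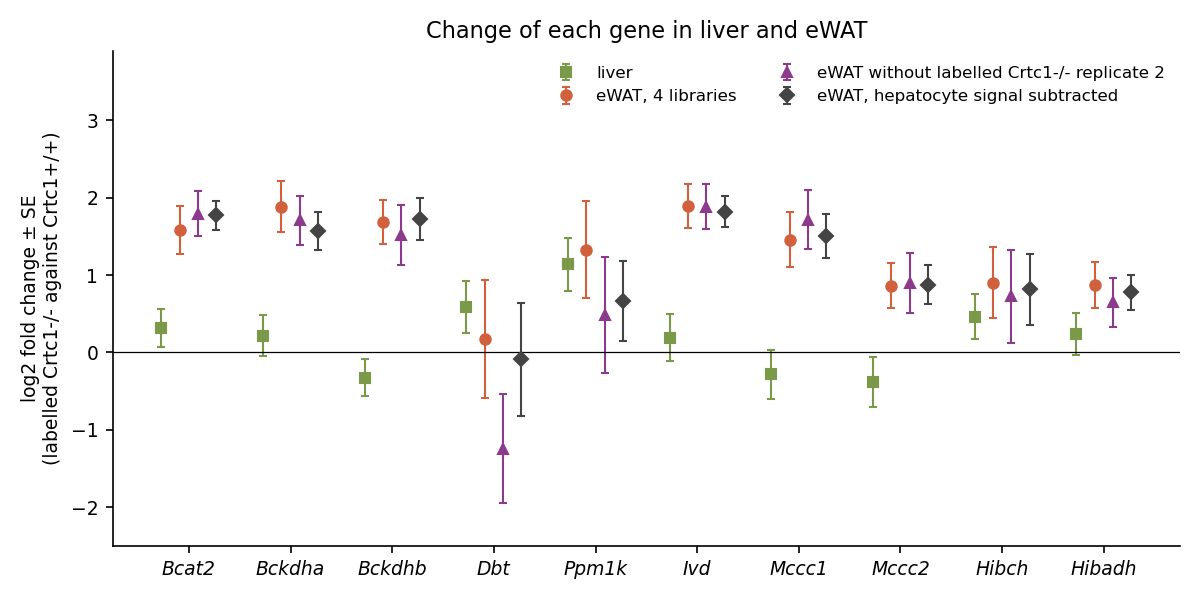
Log2 fold change of labelled Crtc1-/- against Crtc1+/+ for each of the 10 genes, with bars of 1 SE from edgeR, in liver, in eWAT with all 4 libraries, in eWAT without labelled Crtc1-/- replicate 2 and in eWAT after subtraction of the hepatocyte signal. Bcat2, Bckdha, Bckdhb and Ivd lie between 1.52 and 1.89 in all 3 eWAT versions, Dbt falls to -1.25 without that replicate, and the liver values lie between -0.39 and 1.14.

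The library with hepatocyte markers touched the 10 genes to unequal degrees. Hepatocyte markers in labelled Crtc1-/- replicate 2 stood at 47.8% of their share in labelled Crtc1-/- liver. Liver RNA in that proportion would give 9.71% of the Bcat2 value of the library, 33.3% of Bckdhb, 42.6% of Ivd, 60.8% of Bckdha and 68.2% of Ppm1k. With that library left out, Bcat2 was higher by 1.80 (edgeR adjusted p = 0.0209), Bckdha by 1.71 (edgeR adjusted p = 0.0278) and Ivd by 1.89 (edgeR adjusted p = 0.0176), Mccc1 passed with 1.72 (edgeR adjusted p = 0.0454), and Bckdhb had 1.52 (edgeR adjusted p = 0.0675). That fit has 1 labelled Crtc1-/- library, which is assumed to vary like the Crtc1+/+ pair, and called 7.01% of all genes higher. With liver counts subtracted in proportion to the hepatocyte markers, 5 of the 10 passed, Mccc1 beside the first 4, against 12.5% of all genes called higher, and the median was 1.19. With either Crtc1+/+ library left out, 0 of the 10 and 0 of all genes passed an adjusted p of 0.05 by edgeR, while the fold changes were 1.59 and 1.60 for Bcat2, 2.16 and 1.70 for Bckdha, 1.58 and 1.85 for Bckdhb and 1.98 and 1.84 for Ivd without replicate 1 and 2 in turn.

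The adipocyte markers moved with the 10 genes and by more. All 15 were higher in labelled Crtc1-/- eWAT, 11 of them past an adjusted p of 0.05, with a median log2 fold change of 3.65. When the libraries were scaled to the summed adipocyte markers instead of by TMM, the direction turned. All 10 genes were then lower in labelled Crtc1-/- eWAT, 9 of them past an adjusted p of 0.05 by edgeR, against 88.4% of all genes called lower under that scaling, with a median of -2.09 beside -3.62 for all genes. Relative to the median of all genes the 10 stood 1.44 higher under TMM and 1.53 higher under this scaling. A change of scaling shifts all genes by nearly the same amount, so that these near-equal values are not a check of either scaling. Endothelial markers were higher as well (7 of 7, median 2.89) and epididymis markers lower (14 of 14, median -13.16). What part these cell types had in the levels of the 10 genes was not tested.

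The other genes of BCAA catabolism were taken as a list of 22. Of these, 6 passed upward and 1 downward by edgeR, against 6.65% and 5.54% of all genes. The median log2 fold change was 1.03, beside -0.05 for all genes. DESeq2 called further genes of the list in both directions. Pccb, a subunit of propionyl-CoA carboxylase, was at 98.3 and 106 CPM in Crtc1+/+ eWAT and at 334 and 296 CPM in labelled Crtc1-/- eWAT (1.63 ± 0.29, edgeR adjusted p = 0.0343). Auh and Echs1, 2 hydratases of the pathway, changed by 1.35 and 1.33, and the transporter Slc43a1, which carries neutral amino acids across the cell membrane, by 1.93. Slc25a44, which carries BCAA into mitochondria, was at 42.0 and 47.4 CPM against 122 and 100.05 CPM (1.32 ± 0.28, edgeR adjusted p = 0.0457).

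Other genes that regulate or complete BCKDH gave no call in eWAT by edgeR. Bckdk, the kinase that inactivates the complex, was at 73.4 and 71.1 CPM in Crtc1+/+ eWAT and at 92.2 and 54.9 CPM in labelled Crtc1-/- eWAT, with a log2 fold change of 0.03 ± 0.34 (edgeR adjusted p = 0.962). Dld, the E3 subunit shared with other dehydrogenases, had 0.11 ± 0.37 (edgeR adjusted p = 0.846). Of the valine enzymes outside the 10, Acad8 had -0.49 ± 0.29 and Aldh6a1 -1.20 ± 0.50, and neither passed (edgeR adjusted p = 0.287 and 0.171). Klf15, a transcription factor known to drive BCAA genes, had 1.25 ± 0.39 (edgeR adjusted p = 0.0992). DESeq2 called Klf15 higher, with 1.26 (DESeq2 adjusted p = 0.0356). Bcat1, the cytosolic transaminase, was at 9.87 and 9.18 CPM in Crtc1+/+ eWAT and at 15.3 and 0.486 CPM in labelled Crtc1-/- eWAT, so that the labelled Crtc1-/- libraries lay on both sides of the Crtc1+/+ range.

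The gene of the list that edgeR called lower was Slc7a5, the large neutral amino acid transporter of the cell membrane. It was at 688 and 933 CPM in Crtc1+/+ eWAT and at 31.8 and 5.90 CPM in labelled Crtc1-/- eWAT, 42.98-fold lower (log2 fold change -5.43 ± 0.97, edgeR adjusted p = 0.0340). Its log2 fold change was -4.71 without labelled Crtc1-/- replicate 2 and -7.09 without replicate 1. The level of Slc7a5 was 2.57 to 6.78 CPM in liver. The fall lay in the direction of the epididymis markers, and their part in it was not tested. Slc3a2 (-1.05 ± 0.34) and Slc7a8 (-1.08 ± 0.29) were lower too and did not pass (edgeR adjusted p = 0.110 and 0.0727). DESeq2 called both lower (DESeq2 adjusted p = 0.00071 and 0.0080). For the cofactor genes that attach lipoate or biotin to these enzymes, 1 of 5 passed upward by edgeR, against 6.65% of all genes. This was Btd, which recycles biotin, with 1.76. DESeq2 also called Lias of the same list (0.87, DESeq2 adjusted p = 0.0286). The related dehydrogenase complexes and the citrate cycle gave 5 of 6 and 12 of 12 genes with positive fold changes, with medians of 0.57 and 0.84. None of either list passed by edgeR, while 1 and 3 of them had an unadjusted p under 0.05, against 33.3% of all genes.

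In liver, the 10 genes showed no change that passed the test. With edgeR, 0 of the 10 had an adjusted p under 0.05, against 0.0854% of the 11707 genes tested, and DESeq2 likewise called 0. At an unadjusted p under 0.05 there was 1 of the 10, against 17.3% of all genes. Fold changes were positive for 7 and negative for 3, with a median of 0.22 beside 0.0039 for all genes. Both labelled Crtc1-/- libraries lay above both Crtc1+/+ libraries for 4 of the 10 (Bcat2, Dbt, Ppm1k and Hibch), against 25.8% of all genes.

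Ppm1k was the liver gene with the largest difference. It was at 7.19 and 6.98 CPM in Crtc1+/+ liver and at 20.3 and 10.8 CPM in labelled Crtc1-/- liver, and both values of the second group were higher. The log2 fold change was 1.14 ± 0.34 (unadjusted p = 0.00829, edgeR adjusted p = 0.181). It was the single gene of the 10 at the study's threshold, which 2.84% of all genes reached in the upward direction. It rested on which labelled Crtc1-/- library was kept: without replicate 2 it was 1.51 (edgeR adjusted p = 0.0242, in a fit that called 1.11% of all genes higher), and without replicate 1 it was 0.62 (edgeR adjusted p = 0.220). With 1 labelled Crtc1-/- library left, the spread comes from the Crtc1+/+ group alone.

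Bcat2 was at 18.3 and 17.6 CPM in Crtc1+/+ liver and at 22.0 and 22.6 CPM in labelled Crtc1-/- liver, a close pair in each group, with a log2 fold change of 0.31 ± 0.25 (edgeR adjusted p = 0.527). Bckdha was at 301 and 274 CPM against 382 and 286 CPM (0.22 ± 0.26, edgeR adjusted p = 0.690). Bckdhb was at 53.8 and 59.3 CPM against 48.5 and 41.6 CPM (-0.33 ± 0.24, edgeR adjusted p = 0.503). Bckdhb was the member whose 2 labelled Crtc1-/- values both lay below the Crtc1+/+ values in liver, but its FPKM overlapped between the groups, from 43.5 to 46.3 against 42.2 to 44.2. Dbt was at 7.45 and 14.1 CPM against 15.5 and 16.9 CPM (0.59 ± 0.33, edgeR adjusted p = 0.385). The wide spread of Dbt in Crtc1+/+ liver recurred in Crtc1+/+ eWAT, where replicate 1 was again the lower.

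The leucine enzymes had their spread within the labelled Crtc1-/- liver. Ivd was at 158 and 191 CPM in Crtc1+/+ and at 251 and 147 CPM in labelled Crtc1-/- liver. Mccc1 was at 25.2 and 33.7 CPM against 30.3 and 17.98 CPM, and Mccc2 at 42.6 and 46.8 CPM against 45.1 and 23.2 CPM. In each of the 3, replicate 2 of the labelled Crtc1-/- liver was the lowest library and the groups overlapped. Without labelled Crtc1-/- replicate 1, Mccc2 passed with -0.93 (edgeR adjusted p = 0.0349) in a fit that called 5.59% of all genes lower, and without replicate 2 it was 0.0046. Hibch was at 12.7 and 17.998 CPM against 18.1 and 24.3 CPM, and Hibadh at 140 and 190 CPM against 213 and 174 CPM, with adjusted p-values of 0.427 and 0.682 by edgeR. The kinase Bckdk was at 15.9 and 10.8 CPM against 10.4 and 11.0 CPM (-0.32 ± 0.29, edgeR adjusted p = 0.587). Of the other 21 genes of the pathway that could be tested in liver, 0 passed an adjusted p of 0.05 with edgeR. An unadjusted p under 0.05 was reached by 3 upward and 1 downward, near the 17.3% of all genes that reached it.

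Whether the genotype difference was the same in both tissues was tested as an interaction in a fit of all 8 libraries. Bckdhb passed, with a difference that was 1.94 ± 0.36 larger in eWAT than in liver (edgeR adjusted p = 0.0258). It was the single member called, against 3.78% of the 15587 genes called in the same direction. None was called in the opposite direction, against 3.16%. The differences of Mccc1 (1.65, edgeR adjusted p = 0.0785), Ivd (1.62, edgeR adjusted p = 0.0999), Bckdha (1.60, edgeR adjusted p = 0.110) and Bcat2 (1.18, edgeR adjusted p = 0.0629) had the same sign and did not pass. Ppm1k, higher in labelled Crtc1-/- libraries of both tissues, had 0.15 ± 0.74, and Dbt -0.43 ± 0.97. The median over the 10 was 1.17, beside -0.21 for all genes. The call for Bckdhb was lost when any single liver library or Crtc1+/+ eWAT library was left out, with differences of 1.83 to 2.08 in those fits, which called between 0 and 408 genes in all against 1081 with every library. It was also lost when libraries of one genotype and number were taken as 1 mouse and blocked (1.93, edgeR adjusted p = 0.0522), where Mccc1 passed (1.67, edgeR adjusted p = 0.0415) and 2.97% of all genes were called in that direction.

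The tissues themselves were compared next, on the scale set by TMM over all 8 libraries. In Crtc1+/+ mice, 8 of the 10 genes were lower in eWAT than in liver past an adjusted p of 0.05, against 19.8% of all genes, and 0 were higher by edgeR, against 35% of all genes (0 members had an upward unadjusted p under 0.05 either). Bckdha was 464 and 425 CPM in liver and 62.6 and 44.2 CPM in eWAT, 8.33-fold lower (edgeR adjusted p = 0.00157). Bckdhb was 83.0 and 92.0 CPM against 14.1 and 16.6 CPM, 5.70-fold lower (edgeR adjusted p = 0.000868). Ivd was 5.31-fold lower and Ppm1k 4.37-fold lower. Bcat2 went against this pattern, with 28.3 and 27.4 CPM in liver and 38.1 and 36.3 CPM in eWAT (log2 fold change 0.42 ± 0.21, edgeR adjusted p = 0.130). Dbt did not pass either (-1.18 ± 0.69, edgeR adjusted p = 0.180). The Crtc1+/+ eWAT libraries held epididymis markers at 7.32% and 8.64% of counts and adipocyte markers at 0.287% and 0.454%. The part of this makeup in the tissue differences was not tested.

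These tissue differences depended on the scaling. The median over the 10 was -1.52 under TMM beside 0.61 for all genes, and -0.11 beside 2.003 when libraries were scaled by their totals alone. Relative to the median of all genes, it was -2.12 under both. A change of scaling shifts all genes by nearly the same amount, so that this equal value is not a check. By library totals 3 of the 10 were called lower and 1 higher, against 7.21% and 68.7% of all genes, and Dbt and Hibch changed sign to 0.23 and 0.18.

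In labelled Crtc1-/- mice, Bcat2 was higher in eWAT, with 34.2 and 34.7 CPM in liver and 116 and 92.3 CPM in eWAT (3.02-fold, edgeR adjusted p = 0.00305). That 1 of the 10 stands against 18.9% of all genes. Bckdha (2.75-fold lower, edgeR adjusted p = 0.0292) and Ppm1k (3.94-fold lower, edgeR adjusted p = 0.0353) were the 2 called lower, against 8.89% of all genes. The other 7 did not pass. The eWAT group here includes the library with hepatocyte markers. Without it 1 of the 10 was called higher and 4 lower, against 21% and 15.2% of all genes, with Dbt at -3.15 (edgeR adjusted p = 0.00350) and Hibadh at -1.26 (edgeR adjusted p = 0.0398) gained. After hepatocyte subtraction 1 was called higher and 5 lower, against 23% and 19% of all genes, with Bckdhb, Dbt and Hibadh gained. With each number of a genotype blocked as 1 mouse, Bckdha (-1.46, edgeR adjusted p = 0.0513) and Ppm1k (-2.08, edgeR adjusted p = 0.0762) were not called and Hibch was (-0.84, edgeR adjusted p = 0.0398). The median was -0.82 beside 0.20 for all genes. It was 0.29 beside 1.33 under scaling by library totals, where Bckdhb, Ivd, Hibch, Hibadh and Mccc2 changed sign.

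Of the genes beside the 10, Bckdk was higher in eWAT than in liver in Crtc1+/+ mice by 1.22 ± 0.28 (edgeR adjusted p = 0.0107) and in labelled Crtc1-/- mice by 1.46 ± 0.28 (edgeR adjusted p = 0.0115). Bcat1 had 0, 0, 0 and 2 counts in the 4 liver libraries, below the 3 counts taken as the floor of a library. In eWAT it had 205, 177 and 278 counts, and 7 counts in labelled Crtc1-/- replicate 2.

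Ratios of 2 genes within a library are independent of how libraries are scaled. The log2 ratio of Bcat2 to Bckdha counts lay between -4.12 and -3.66 in the 4 liver libraries and between -1.25 and -0.28 in the 4 eWAT libraries. The tissues did not overlap, and the mean difference was 3.27 (exact permutation test, two-sided p = 0.0286, the smallest p that 4 against 4 can give). The ratio of the kinase Bckdk to the phosphatase Ppm1k was -0.96 to 1.14 in liver and 2.02 to 4.45 in eWAT, a difference of 3.45 with the same p of 0.0286 by exact permutation. The ratio of Bckdha to Bckdhb was lower in eWAT by 0.73 (log2 difference -0.73), again with p = 0.0286 by exact permutation. Because the tissues did not overlap in any of the 3 ratios, leaving out a library could not turn a sign. The tissues share animals, so that the 8 values of this test are not independent, and the test was chosen after the data were seen.

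**Figure D4:**
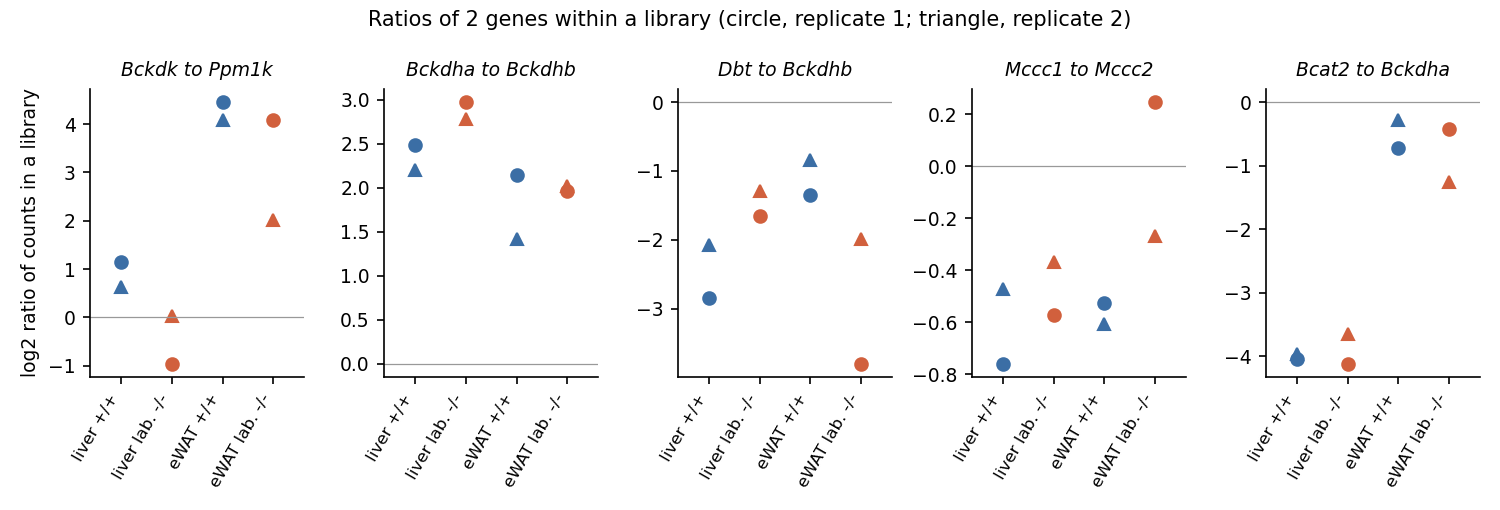
Log2 ratio of the counts of 2 genes within each library for 5 pairs, with 1 symbol per library and 4 groups per panel (lab. -/-, labelled Crtc1-/-). Bcat2 to Bckdha and Bckdk to Ppm1k separate the tissues, with gaps of 3.27 and 3.45 between the tissue means, and Dbt to Bckdhb moves in opposite directions with genotype in liver and eWAT.

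Between genotypes the same ratios were compared 2 against 2, where an exact permutation test cannot give a two-sided p below 0.333. Dbt to Bckdhb in eWAT was -1.35 and -0.84 in Crtc1+/+ and -3.80 and -1.99 in labelled Crtc1-/- libraries, a mean difference of -1.80 without overlap. In liver it was -2.85 and -2.07 against -1.65 and -1.30, a mean difference of 0.99 without overlap. The exact permutation p was 0.333 in each tissue. Bckdk to Ppm1k in liver was 1.14 and 0.63 in Crtc1+/+ and -0.96 and 0.02 in labelled Crtc1-/- libraries, a mean difference of -1.36. In eWAT the same ratio was 4.45 and 4.07 against 4.09 and 2.02 and overlapped. Mccc1 to Mccc2 differed by 0.56 in eWAT without overlap and by 0.14 in liver with overlap.

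The genes whose levels followed Bcat2 most closely over the 8 libraries were Myct1, Egfl7, Parvb, Tmem88 and Tie1, with Pearson r of log2 CPM between 0.996 and 0.999 among 11736 genes. Tie1, an endothelial receptor kinase, ran from 6.84 to 17.96 CPM in all libraries but the labelled Crtc1-/- eWAT, where it was 271 and 152 CPM. The mean of the other 9 members was followed most closely by Igf1, Lurap1l, Npc1, Acp2 and Mgst1, with r between 0.986 and 0.992. Igf1, a liver-made growth factor, was at 360 to 732 CPM in liver, 24.3 and 22.6 CPM in Crtc1+/+ eWAT, and 86.9 and 219.9 CPM in labelled Crtc1-/- eWAT. The 8 libraries share 2 tissues and 4 groups, so that any gene with these group levels scores high, and the correlations are descriptions.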

How the data were processed

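RNA-seq was carried out at BGI on total RNA of liver and eWAT. The authors deposited estimated counts per gene, not normalized, and FPKM, which scale by transcript length and library total, for the same genes. The submitters' processing notes name HISAT, Bowtie2 and GRCm38.p6, and the counting tool is not given in the sources used here. Between 5.44% and 9.98% of the deposited counts of a library were not whole, as arises where reads are shared between genes.

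Counts were rounded, filtered by filterByExpr, scaled by TMM and tested by quasi-likelihood F test in edgeR 4.0.16 under R 4.3.3, within a tissue for genotype and over all 8 libraries for tissue and interaction, and p-values were adjusted by the Benjamini-Hochberg method across every gene of a fit. TMM factors within a tissue were 0.974 to 1.04 in liver and 1.14, 1.10, 0.984 and 0.818 in eWAT (Crtc1+/+ then labelled Crtc1-/-). Standard errors are the fold change over the square root of the F statistic. Shares of counts carried Wilson 95% intervals, which cover counting error only (9.11% to 9.14% for the 9.12% of hepatocyte markers, and a floor of 3 counts is 0.152 to 0.181 CPM). Ratios used counts plus 0.5 and an exact permutation test (scipy 1.17.1). The 4 against 4 ratio tests and their alternatives were added after the data were seen. Alternatives were DESeq2 1.42.0, limma 3.58.1 on quantile-normalized log2(FPKM + 1) and log2(FPKM + 0.1), other scalings, no filter, a replicate block, a block for each number within a genotype (added after the data were seen), hepatocyte subtraction and each library left out. On simulated counts with the liver dispersion, edgeR recovered 26.5% of genes changed by 1 and 93.9% changed by 2 on the log2 scale, with 11707 genes simulated. With the eWAT dispersion it recovered 0% and 1.52%, and 75.8% changed by 4, with 15391 genes simulated.

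Coordinates and sequences are from GRCm38.p6. The genes named were the 10, Bcat1, Bckdk, Dld, Acad8, Aldh6a1, Pccb, Slc25a44 and Klf15, any other pathway gene past the threshold (1 is counted but not reported here), Crtc1, the 5 genes most like Bcat2 and the mean of the other 9 by Pearson r (mean log2 CPM of at least 1), and leading markers. Btd, Lias, Slc3a2 and Slc7a8 were named after their values were seen. The members, lists and rules were chosen with earlier results of these data known.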

Additional observations from a re-analysis of the deposited data

Results flagged for a closer look

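In 3 genes of BCAA catabolism the genotype difference was not the same in the 2 tissues by the interaction test of edgeR, out of the 10 genes and 22 others of the pathway, while 6.94% of all genes were called. For Bckdhb the log2 difference between labelled Crtc1-/- and Crtc1+/+ libraries was 1.94 higher in eWAT than in liver (adjusted p = 0.0258). For the mitochondrial BCAA carrier Slc25a44 it was 1.66 higher (adjusted p = 0.0354), with 41.95 and 47.4 CPM against 122 and 100.05 CPM in eWAT and 75.7 and 66.8 CPM against 58.8 and 46.9 CPM in liver, so that every labelled Crtc1-/- library was higher in eWAT and lower in liver. For Slc7a5 it was lower in eWAT, at -5.34 (adjusted p = 0.0354). The Slc25a44 call was lost with upper-quartile scaling (adjusted p = 0.0577) and scaling by library totals (adjusted p = 0.0973), and the Slc7a5 call by library totals (adjusted p = 0.0503). All 3 were lost when any liver or Crtc1+/+ eWAT library was left out, and when each number of a genotype was taken as 1 mouse and blocked (edgeR adjusted p of 0.0522 for Bckdhb, 0.0542 for Slc25a44 and 0.0626 for Slc7a5). The eWAT groups also differed in adipocyte, epididymis and hepatocyte markers, whose part in these differences was not tested.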

How the results depend on the processing

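Of the values recomputed for whole comparisons and for ratios, 208 kept their direction and side of the threshold, or stayed near the first value, 24 kept the direction alone, 56 moved and 9 turned. Part of this was fixed in advance. Genotype ratios, at 2 against 2, could not cross the threshold, and tissue ratios with 1 library left out could not reach it. The tally is thus not a measure of stability. In eWAT, 4 of the 10 genes were called by edgeR, 7 by DESeq2, 1 by limma on log2(FPKM + 0.1), 0 with scaling by library totals and 9, all lower, with scaling to adipocyte markers. These called 15.3%, 7.39% and 3.81% of all genes higher and 88.4% lower in turn. The median of 1.39 became 1.19 with upper-quartile scaling and with hepatocyte subtraction, 1.07 by library totals, 1.05 by limma on log2(FPKM + 1) and -2.09 with adipocyte scaling. At the study's threshold 5 genes became 3 by library totals, 3 by limma on log2(FPKM + 1) and 1 on log2(FPKM + 0.1). In liver the 1 gene at that threshold became 0 by both limma versions and in the fit of all 8 libraries.

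Signs in eWAT turned for Dbt (-0.030 with upper-quartile scaling, -0.21 by library totals, -0.092 with hepatocyte subtraction), for Bckdk (-0.18, -0.25 by the first pair of scalings, -0.29 and -0.31 by limma, -0.082 in the fit of all 8 libraries), for Dld (-0.080, -0.20, -0.048 and -0.047) and for Bcat1 (0.034 by limma on log2(FPKM + 1)). With adipocyte scaling Bcat2 had -2.04, Bckdha -1.68, Bckdhb -1.80, Dbt -3.07, Ppm1k -2.03, Ivd -1.69, Hibch -2.49, Hibadh -2.61, Mccc1 -2.14, Mccc2 -2.66, Bckdk -3.63, Dld -3.31, Pccb -1.93, Slc25a44 -2.25, Klf15 -2.15, Crtc1 -3.17, Echs1 -2.20, Auh -2.18 and Slc43a1 -1.61, because that scaling divides by markers that rose more than these genes.

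Between genotypes, same-numbered libraries share only a number (correlation of deviations 0.07 in liver and -0.24 in eWAT). Between tissues of one genotype, whose mice are shared, it was 0.30 in Crtc1+/+ and 0.01 in labelled Crtc1-/- mice, and whether a number marks a mouse is not stated. Without a block the tissue and interaction fits treat the 8 libraries as independent. With a replicate block 0 of the 10 and 0 of all genes were called in eWAT, with fold changes of 1.56 for Bcat2, 1.90 for Bckdha, 1.69 for Bckdhb and 1.89 for Ivd (edgeR adjusted p of 0.0682, 0.0686, 0.0583 and 0.0584). Dbt had -0.11 and Bckdk -0.021. Between the tissues of labelled Crtc1-/- mice 5 rather than 3 were then called, against 33.1% rather than 27.8% of all genes. With a block for each number within a genotype, added after the data were seen, calls were 8 and 2 between tissues and 1 in the interaction, where Mccc1 replaced Bckdhb. In turn 54.7%, 28.9% and 5.94% of all genes were called, in either direction.

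Between tissues of Crtc1+/+ mice, library totals gave 4 calls rather than 8, a median of -0.11, and 0.23 for Dbt and 0.18 for Hibch. In labelled Crtc1-/- mice they gave a median of 0.29, with Bckdhb 0.53, Ivd 0.33, Hibch 0.25, Hibadh 0.15 and Mccc2 0.79. There the limma medians were -0.21 and -0.22, Ivd was 0.00012 on log2(FPKM + 0.1), and hepatocyte subtraction gave 6 calls. In the interaction, DESeq2 called 5 upward (2056 genes in all), both limma versions 3 and hepatocyte subtraction 2. These called 7.45%, 9.06%, 8.74% and 6.87% of all genes upward in turn, against 3.78% in the first fit. Ppm1k had -0.081, -0.22 and -0.54 with upper-quartile, library-total and subtracted values. After subtraction the eWAT differences of Bckdha to Bckdhb and Bcat2 to Bckdha were -0.16 and 0.20. The cause was not tested in these cases.

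With 1 library left out, calls in eWAT ranged from 0 to 4, being 0 without either Crtc1+/+ library, the median from 1.20 to 1.58 and the genes at the study's threshold from 0 to 5. Dbt ranged from -1.25 to 0.87, Bckdk from -0.39 to 0.32, Dld from -0.19 to 0.57 and Bcat1 from -4.27 to 0.65. In liver calls ranged from 0 to 1, as did genes at that threshold, Ivd from -0.24 to 0.52, Mccc1 from -0.70 to 0.033 and Mccc2 from -0.93 to 0.0046. Between tissues calls ranged from 3 to 9 in Crtc1+/+ mice, being 3 without liver replicate 2 or eWAT replicate 1, and from 1 to 5 in labelled Crtc1-/- mice, being 5 without eWAT replicate 2, with Mccc1 from -0.18 to 0.60 and Mccc2 from -0.76 to 0.22. Interaction calls ranged from 0 to 3, being 3 without labelled Crtc1-/- eWAT replicate 2, with medians of 0.98 to 1.46, Dbt from -1.79 to 0.32, Hibch from -0.048 to 0.99 and Ppm1k from -0.64 to 0.74. Tissue differences in log2 ratios ranged from 3.15 to 3.47 for Bcat2 to Bckdha, -0.86 to -0.57 for Bckdha to Bckdhb, 3.06 to 3.997 for Bckdk to Ppm1k and -0.42 to 0.57 for Dbt to Bckdhb, where 3 against 4 libraries cannot reach an exact p of 0.05. Genotype differences ranged from -0.75 to 0.082 in eWAT and -0.12 to 0.34 in liver for Bcat2 to Bckdha. They ranged from -0.15 to 0.58 in eWAT for Bckdha to Bckdhb and from -0.00079 to 0.29 in liver for Mccc1 to Mccc2. The calls over all genes changed as well in the fits with 1 library left out, so that the ranges of calls are descriptions.

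The simulated counts held few changed genes, so that the adjusted threshold was harder to reach there than in the eWAT data, where 1875 of 15391 genes passed. The shares recovered are thus not the power of this comparison. With 2 libraries a group, the genes without a call are not shown to be unchanged.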

Other observations

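Replicate 1 of the Crtc1+/+ mice was lower than replicate 2 in both tissues for several of the 10 genes. On the log2 scale of CPM, Dbt was -0.88 in liver and -0.74 in eWAT (replicate 1 against replicate 2), Hibch -0.48 and -1.03, and Mccc1 -0.42 and -0.30. Beside the 10, Dld had -1.04 and -0.75, Aldh6a1 -0.73 and -1.16, and the methylmalonyl-CoA mutase Mut -0.86 and -1.15. Across 7617 genes with at least 50 counts in each library, the ratio of replicate 1 to replicate 2 fell with transcript length as implied by counts and FPKM, with a Spearman rho of -0.32 in Crtc1+/+ liver and -0.512 in Crtc1+/+ eWAT, against -0.0826 and -0.12 between the labelled Crtc1-/- replicates. The implied length of Dbt was 1.2 times that of the median gene and that of Hibch 0.675 times. Genes are not independent replicates, and the part of length in these gene levels was not tested.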
